A study of Mus musculus with 10 samples.

Results

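Cirbp and Rbm3 encode the cold inducible RNA binding proteins of the mouse, and the report follows these 2 genes of the 14812 gene entries counted in single hepatocytes through the day and across the liver lobule. They were chosen by name, as the entries written cirbp and rbm3 in each library's count table, a rule that uses no measured value, although earlier results of these data were known when they were chosen. All 10 libraries came from C57BL/6 males aged 3 months on regular chow ad libitum, anaesthetized with ketamine and xylazine before their hepatocytes were isolated by collagenase perfusion and Percoll purification. The libraries differed by label in the time of sampling in zeitgeber time (ZT, by convention counted in hours from lights on). There were 3 libraries each for ZT0 and ZT12 and 2 each for ZT6 and ZT18, lettered A to C within a time. The column of the index plate also differed. It was 3, 7 and 5 for A, B and C at both ZT0 and ZT12, 7 at ZT6 and 4 at ZT18. How many mice each library pooled is not given in the labels, so p-values measure the spread between libraries, which may be partly technical. Body temperature was not among the labels.

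CIRBP and RBM3 are small nuclear and cytoplasmic proteins with an RNA recognition motif followed by a glycine-rich tail, and both are known for rising when mammalian cells are cooled by a few degrees. They bind RNA, influence the choice of polyadenylation site and aid translation in the cold. In liver, Cirbp transcript is known to follow the daily cycle of body temperature, which in a nocturnal mouse is low in the light phase, and part of that control acts on the splicing of the transcript. Temperature-sensitive CLK kinases, which phosphorylate the SR family of splicing factors, are known to control an exon of Rbm3 that leads to decay of the transcript. The libraries counted tags from the 3' end, so a level here is the sum over all forms of a gene that the counting assigned to it.

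Cirbp lies at chr10:80165985-80172786 on the plus strand of GRCm38 (GENCODE M21, ENSMUSG00000045193.13), with 7 annotated transcripts, of which 2 are protein coding. Rbm3 lies at chrX:8138975-8145880 on the minus strand (ENSMUSG00000031167.16), with 11 annotated transcripts, of which 6 are protein coding. The sequence ahead of a Cirbp start site is shown because it holds the letters TCCCCGCC, known as the mild cold responsive element of the Cirbp promoter, and GC boxes, the letters bound by SP1. It is from RefSeq (GRCm38.p6), on the plus strand, and stops where an annotated exon begins, short of the start site itself, with the cold responsive element and 2 GC boxes in capitals.
Cirbp, chr10:80167589-80167777: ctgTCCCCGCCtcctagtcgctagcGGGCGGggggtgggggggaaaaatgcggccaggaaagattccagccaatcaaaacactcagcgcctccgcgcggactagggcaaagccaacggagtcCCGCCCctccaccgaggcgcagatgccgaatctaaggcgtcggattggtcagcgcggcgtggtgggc

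The stretch has a GC content of 66.1%. Counted from the annotated start, TCCCCGCC begins 247 bases upstream and the GC boxes (GGGCGG, read on both strands as CCGCCC on the other) begin 225, 128 and 65 bases upstream, the last of them only partly within the printed stretch. TCCCCGCC occurred on either strand in 4.64% of the 32851 windows of 250 bases in the same promoter table, and GGGCGG in 32.74%. The second Cirbp window, ahead of another start site, held 0 copies of TCCCCGCC and 4 GC boxes. Neither of the 2 Cirbp windows held the E-box CACGTG (found in 6.02% of windows), a D-box (TTATGTAA or TTATGCAA, 1.5%) or a heat shock element unit (TTCNNGAA, 7.17%, or GAANNTTC, 6.69%), which says only that these letters are not in these windows.

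The libraries held 710 to 2860 cells and 1454623 to 7144803 unique molecular identifiers (UMIs, counted molecules), with a median of 1588 to 2662 UMIs per cell. Levels are given as CPM, UMIs relative to the library total with effective totals from edgeR's trimmed mean of M-values (TMM), with scaling factors of 0.8876 to 1.143. The 7 hepatocyte markers summed to 38740 to 80960 CPM, whereas the 8 macrophage markers reached at most 3.16 CPM and the 8 listed lymphocyte markers at most 0.592 CPM. Clec4f, the defining Kupffer cell marker, and Cd3e and Cd79a of lymphocytes were at 0 in all libraries. Other members of these lists were detected. Vsig4, Cd68 and Adgre1 held 33, 13 and 2 UMIs in all libraries together, and Ptprc and Ms4a1 15 and 1. The 5 listed neutrophil markers summed to at most 7.77 CPM, in ZT12B, where S100a8 measured 5.14 CPM. The 7 endothelial markers summed to 2.70 to 15.3 CPM, with Clec4g at 0 and Pecam1 and Stab2 detected, the 6 stellate markers to 3.37 to 12.8 CPM and the 5 cholangiocyte markers to 0.792 to 36.7 CPM. ZT18A and ZT18B were the only libraries indexed from column 4 of the index plate, so time ZT18 and that column cannot be told apart. The count columns carry cell numbers and no barcodes, so barcodes shared between libraries could not be counted.

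Cirbp was the scarcer of the pair, with 421 UMIs in all libraries together, and its level was highest at ZT6 and lowest at ZT18. At ZT0 it measured 3.75, 11.3 and 6.43 CPM in libraries A, B and C. At ZT6 it measured 17.6 and 19.8 CPM in A and B. At ZT12 the 3 libraries held 12.1, 9.86 and 14.1 CPM, and at ZT18 the 2 libraries held 4.20 and 4.26 CPM. Both ZT6 libraries thus lay above all others, and both ZT18 libraries lay below all others except ZT0A. Mean levels were 18.7 ± 1.54 CPM (SD, n = 2) for ZT6, 12.03 ± 2.13 (n = 3) for ZT12, 7.16 ± 3.83 (n = 3) for ZT0 and 4.23 ± 0.0467 (n = 2) for ZT18.

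**Figure D1:**
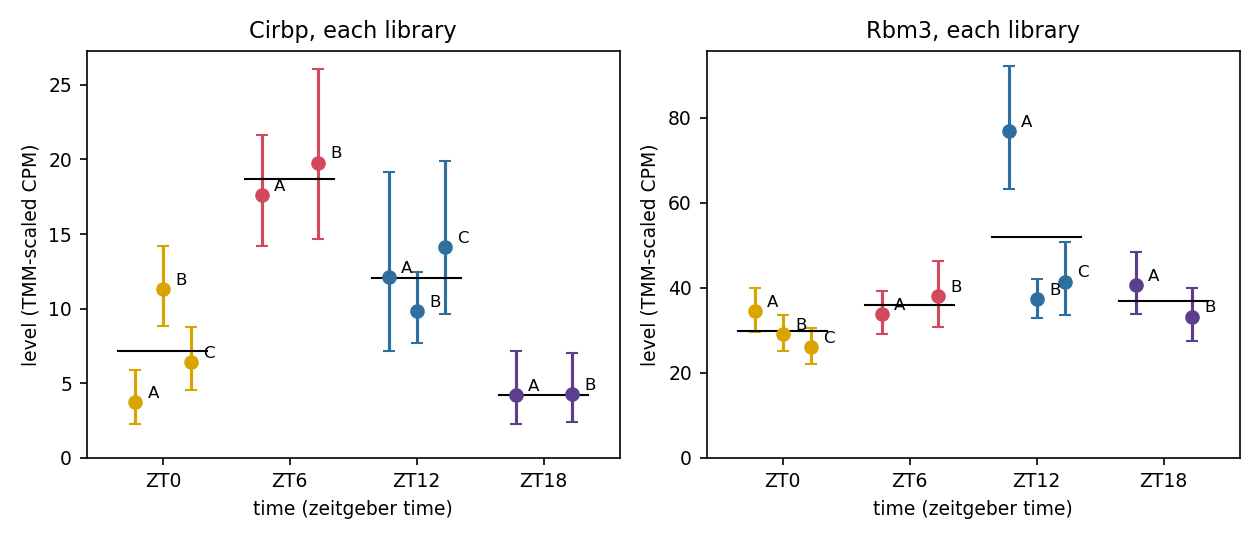
Level of Cirbp (left) and Rbm3 (right) in TMM-scaled CPM against time, 1 point per library labelled with its letter, with 95% Poisson intervals of the count and the mean of each time as a black line. The ZT6 libraries of Cirbp sit at 17.6 and 19.8 CPM and its ZT18 libraries at 4.20 and 4.26, while for Rbm3 the library ZT12A stands at 76.8 CPM above all others.

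The counts behind these Cirbp levels ranged from 13 UMIs at ZT18A to 91 at ZT6A. The 95% Poisson interval, which covers counting error only, was 2.24 to 7.18 CPM at ZT18A and 14.2 to 21.6 CPM at ZT6A. At ZT0 the libraries spread by 11.5 times the variance that counting alone gives (chi-square per degree of freedom). The figure was 1.51 at ZT12, 0.440 at ZT6 and 0.00168 at ZT18. The 2 ZT18 libraries thus lay closer together than counting alone gives, so their small SD does not measure how precisely that level is known. At ZT0, B was about as high as the ZT12 libraries and A at the level of ZT18. Separate libraries can differ by more than counting, so these figures describe the spread and are no test.

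A 24-h wave fitted to Cirbp over the 10 libraries had an amplitude of 1.11 on the log2 scale, measured from the mean to the peak, and peaked at ZT 7.21 (edgeR quasi-likelihood F-test, Benjamini-Hochberg adjusted p = 0.0154 over 8908 genes). Peak and trough of the wave differed 4.65-fold. The same test called 5.14% of all genes tested, and Cirbp stood at rank 196 by p. With 4 times 6 h apart, the peak time follows from the ratio of a few means and has no finer resolution than the sampling. The test with a separate mean for each time, which assumes no wave, also called Cirbp (edgeR adjusted p = 0.0259), as it did 6.58% of genes.

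Between ZT6 and ZT18 Cirbp fell by 2.13 on the log2 scale (SE 0.439, 95% interval -3.07 to -1.18, edgeR adjusted p = 0.0187), a 4.37-fold difference with all libraries of one time above all of the other. Of all genes, 3.79% were called in that comparison and 1.45% as lower at ZT18, while 63.1% had libraries of the 2 times that did not overlap. None of the other 5 pairs of times passed. The ZT6 level was 2.55-fold the ZT0 level (log2 1.35, SE 0.345, edgeR adjusted p = 0.088), and the ZT18 level was 2.76-fold below the ZT12 level (log2 -1.46, SE 0.432, edgeR adjusted p = 0.0711), in comparisons that called 0.718% and 4.85% of genes. ZT12 against ZT0 gave 0.69 (SE 0.334), ZT12 against ZT6 gave -0.66 (SE 0.356) and ZT18 against ZT0 gave -0.78 (SE 0.425), each with an edgeR adjusted p of at least 0.341, in comparisons that called 3.44%, 0.595% and 1.11% of genes. The mean of ZT0 and ZT12 against that of ZT6 and ZT18, which a 24-h wave cannot give, differed by 0.06 for Cirbp and 0.10 for Rbm3 (edgeR adjusted p of 0.956 and 0.882), and that test called 0.505% of genes. In order from the highest, the times ran ZT6, ZT12, ZT0 and ZT18, and no neighbours in that order differed past the threshold.

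Some Cirbp calls were lost when 1 library was left out, with values close to those of all libraries. The wave no longer passed without ZT6B (amplitude 1.08, edgeR adjusted p = 0.0629), without ZT18A (1.09, adjusted p = 0.0593) or without ZT18B (1.10, adjusted p = 0.0547), and it still passed without ZT6A (1.16, adjusted p = 0.0478). The test of any difference between times was lost without any 1 of the ZT6 and ZT18 libraries (edgeR adjusted p = 0.0962 to 0.11) and without ZT12A (0.0539), and the difference between ZT6 and ZT18 no longer passed without any 1 of its 4 libraries (0.107 to 0.159), with values of -2.22 to -2.05. Without both ZT18 libraries the amplitude was 1.07 and the edgeR adjusted p was 0.148. Within index column 7, which held ZT0B, ZT6A, ZT6B and ZT12B, Cirbp measured 11.3 CPM at ZT0, 17.6 and 19.8 at ZT6 and 9.86 at ZT12. With the index column as a block the amplitude was 0.86 (edgeR adjusted p = 0.141).

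The sum of early response genes, known to be induced while cells are isolated, moved along with part of this course. The summed level of the 10 listed genes, among them Fos, Jun, Atf3 and Egr1, was 880 to 882 CPM at ZT6 and 301 to 391 at ZT12. It was 353 to 812 CPM at ZT0 and 517 to 610 at ZT18. The genes did not all move alike. Egr1, Junb and Fos were higher in both ZT6 libraries than in both ZT18 libraries. Jun went the other way, with 77.2 and 87.9 CPM at ZT6 and 122 and 117 at ZT18. The part of these genes in the Cirbp result was not tested. Erythroid markers summed to 380 CPM in ZT18B and 102 in ZT18A, against 70.7 to 94.8 in the other libraries. Alas2 alone measured 70.1 to 93.9 CPM over all libraries. The excess in ZT18B was in the haemoglobin genes, with Hbb-bs at 150 CPM there and at most 5.81 in any other library. Cholangiocyte markers summed to 17.8 and 12.2 CPM at ZT18 and 17.3 to 36.7 at ZT0. They summed to 4.84 and 0.792 at ZT6 and 3.37 to 5.73 at ZT12. This course was that of Sox9, with 565 UMIs in all libraries, while Krt19, Krt7, Epcam and Cldn7 held 2, 3, 3 and 5. The part of both in the Cirbp result was likewise not tested. Without the 109 cells that held at least 2 UMIs of markers of endothelial cells, macrophages, lymphocytes, neutrophils, stellate cells or cholangiocytes, among which were 4 Cirbp UMIs, the amplitude was 1.10 (edgeR adjusted p = 0.0156).

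Rbm3 was more abundant in UMIs, with 1512 in all, and varied less between times. At ZT0 it measured 34.5, 29.1 and 26.1 CPM in A, B and C, and at ZT6 it measured 33.9 and 38.0 CPM. The ZT12 libraries held 76.8, 37.3 and 41.5 CPM, and the ZT18 libraries 40.7 and 33.3 CPM. All 3 ZT12 libraries lay above all 3 ZT0 libraries, though ZT12B only by a few CPM, and the ZT6 and ZT18 libraries overlapped. Mean levels were 51.9 ± 21.7 CPM (SD, n = 3) for ZT12, 37.0 ± 5.25 (n = 2) for ZT18, 35.9 ± 2.93 (n = 2) for ZT6 and 29.9 ± 4.29 (n = 3) for ZT0.

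No time test passed for Rbm3. The wave had an amplitude of 0.38 on the log2 scale with its peak at ZT 12.22 (edgeR adjusted p = 0.191), and the test of any difference between times gave an adjusted p of 0.249. The farthest pair, ZT12 against ZT0, differed by 0.76 (SE 0.255, 95% interval 0.21 to 1.31, edgeR adjusted p = 0.145), a 1.69-fold higher level at ZT12 in a comparison that called 3.44% of genes and in which 17% of genes had libraries that did not overlap. ZT18 against ZT6, the pair called for Cirbp, gave 0.04 for Rbm3 with a 95% interval of -0.63 to 0.72. In order from the highest, the times ran ZT12, ZT18, ZT6 and ZT0.

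Much of the ZT12 mean came from 1 library. ZT12A held 114 Rbm3 UMIs, or 76.8 CPM with a 95% Poisson interval of 63.4 to 92.3, and the ZT12 libraries spread by 22.2 times the counting variance. Without ZT12A the difference from ZT0 was 0.39 in place of 0.76, and the amplitude of the wave was 0.21. ZT12A was also the smallest library, with 710 cells, and had the highest share of mitochondrially encoded UMIs, 24.28% against 12.88% to 21.53% in the other 9. Its part in the Rbm3 level was not tested.

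The log2 ratio of Cirbp to Rbm3, with 1 CPM added to each level, sets the genes against each other within a library. The ratio is shrunk by that addition, most where Cirbp is low. It was -0.91 and -0.91 in the ZT6 libraries and -3.00 and -2.70 in the ZT18 libraries. At ZT0 it was -2.90, -1.29 and -1.86, and at ZT12 it was -2.57, -1.82 and -1.49. The ratio was thus highest in both ZT6 libraries, while the ZT18 libraries overlapped with those of ZT0. An exact permutation test over all 25200 assignments of the libraries to the 4 times gave p = 0.0848, so a different daily course of the genes was not shown, although Cirbp passed the time tests and Rbm3 did not. Without ZT0A the p was 0.0246. Compared per UMI, with no correction for length since 3' tags are counted per molecule, Rbm3 exceeded Cirbp in every library.

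The lobule position of each cell was read from 16 landmark genes, 8 known to be high near the portal vein and 8 near the central vein, and the cells of each library were ordered and divided into 3 equal zones. Genes outside the landmarks followed the order: over 8 equal layers of cells, Glul, the pericentral glutamine synthetase gene, went from 2186 CPM in layer 1 to 42.3 in layer 8, and Sds, the periportal serine dehydratase gene, from 19.6 to 270 CPM. Each comparison of zones was made within libraries, with the library as a block.

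Rbm3 was higher in the periportal zone. The pericentral zone measured 23.2 to 63.2 CPM over the 10 libraries, the middle zone 27.2 to 74.7 and the periportal zone 26.8 to 89.2, with means of 34.1 ± 11.2, 39.3 ± 13.2 and 43.8 ± 17.8 (SD, n = 10). The periportal level exceeded the pericentral level in 9 of 10 libraries, and ZT6A was the exception with 31.2 against 32.9 CPM. The difference was 0.33 on the log2 scale (SE 0.0925, 95% interval 0.14 to 0.52, edgeR adjusted p = 0.00721), or 1.26-fold, in a test that called 24.6% of genes, 11.9% as periportal. Its size by library, taken as log2(CPM + 1), ran from -0.08 in ZT6A to 0.58 in ZT0A.

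The Rbm3 zone call did not depend on any single library, with differences of 0.30 to 0.38 and edgeR adjusted p of at most 0.0271 when each was left out. It was lost when libraries were scaled by their total alone (0.23, edgeR adjusted p = 0.0739), a scaling that moves the median zone difference of all genes to -0.11, and when the 8955 cells of at least 2000 UMIs were used alone (0.31, adjusted p = 0.0629). Ordering the cells by the odd-numbered or even-numbered landmarks gave 0.37 and 0.31, and both passed.

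**Figure D2:**
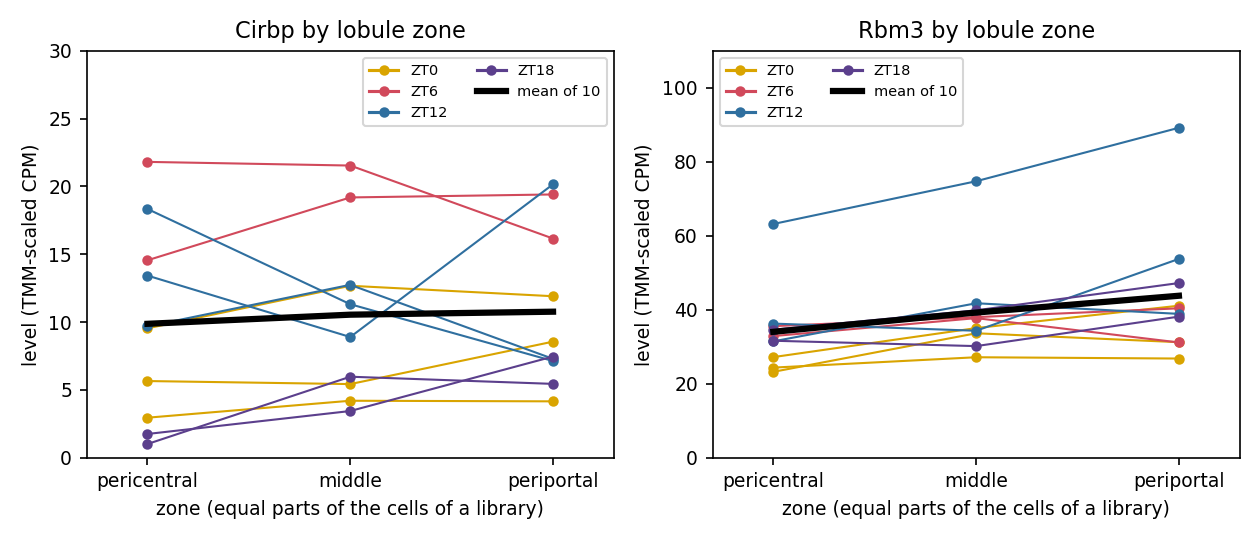
Level of Cirbp (left) and Rbm3 (right) in TMM-scaled CPM in the pericentral, middle and periportal zone of each library, 1 line per library coloured by time, with the mean of the 10 libraries in black. The Rbm3 mean runs from 34.1 to 43.8 CPM and the Cirbp mean from 9.88 to 10.8.

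Cirbp did not pass the zone test. Its zones held 133, 142 and 146 UMIs from pericentral to periportal, with means of 9.88 ± 7.14, 10.5 ± 6.20 and 10.8 ± 5.83 CPM (SD, n = 10). The periportal level was the higher in 7 of 10 libraries, and the difference was 0.23 (SE 0.195, 95% interval -0.17 to 0.63, edgeR adjusted p = 0.448), an interval that holds the Rbm3 value. Taken per library as log2(CPM + 1), the zone difference of Rbm3 minus that of Cirbp averaged -0.01 ± 0.919 over the 10 libraries (exact sign-flip test over 1024 assignments, two-sided p = 0.977, a test chosen after the values were seen). Unlike the edgeR values, this average gives all libraries the same weight, also those with as little as 1 Cirbp UMI in a zone. A difference in zonation between the genes was therefore not shown.

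By time, the Cirbp zone difference was widest at ZT18. There the 2 libraries together held 3 pericentral and 15 periportal UMIs. The periportal rate was 4.59-fold the pericentral rate, with a 95% counting interval of 1.3 to 24.8. The same ratio was 1.289 (0.83 to 2.01) at ZT0, 1.085 (0.71 to 1.67) at ZT6 and 0.85 (0.53 to 1.35) at ZT12. These intervals pool the libraries of a time and cover counting error only, not the spread between libraries. ZT18 was singled out after the values were seen. In CPM the ZT18 libraries measured 1.02 and 1.76 pericentral against 5.45 and 7.46 periportal. At ZT12 the order went the other way in 2 of 3 libraries, with 13.8 ± 4.34 CPM pericentral and 11.5 ± 7.48 periportal (SD, n = 3). At ZT6 the outer zones held 18.2 ± 5.13 and 17.8 ± 2.298 CPM (n = 2), and at ZT0 6.05 ± 3.31 and 8.21 ± 3.88 CPM (n = 3), where all 3 libraries were higher in the periportal zone. The test of whether the daily wave differs between the zones did not pass for Cirbp (edgeR adjusted p = 0.885) or Rbm3 (0.96), and called 0.0337% of genes.

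Rbm3 kept its periportal side at 3 of the times. Its pericentral and periportal means were 24.9 ± 2.05 and 33.1 ± 7.31 CPM at ZT0 (SD, n = 3), 43.7 ± 17.1 and 60.6 ± 25.8 at ZT12 (n = 3) and 33.1 ± 2.11 and 42.7 ± 6.41 at ZT18 (n = 2), and every library of these times was higher in the periportal zone. At ZT6 the means were 34.2 ± 1.90 and 35.8 ± 6.53 CPM (n = 2), with 1 library in each direction.

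Over 8 layers, mean Rbm3 was 32.6 ± 12.8 CPM in layer 1 nearest the central vein, between 33.4 and 35.3 in layers 2 to 4, and between 39.6 and 45.3 in layers 5 to 8 (SD, n = 10 libraries). Cirbp stayed between 8.86 and 12.3 CPM with no steady course, from 9.18 ± 5.93 in layer 1 to 9.30 ± 5.71 in layer 8. In layer 8 mean Rbm3 was 44.7 ± 32.3 CPM, with 133.5 CPM in the highest library. A layer held 45 to 65 Cirbp UMIs and 162 to 223 Rbm3 UMIs over all libraries. For Cirbp the SD between libraries exceeded the range of the layer means. That SD also holds the differences between times, so it does not measure the spread of layer differences within a library.

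**Figure D3:**
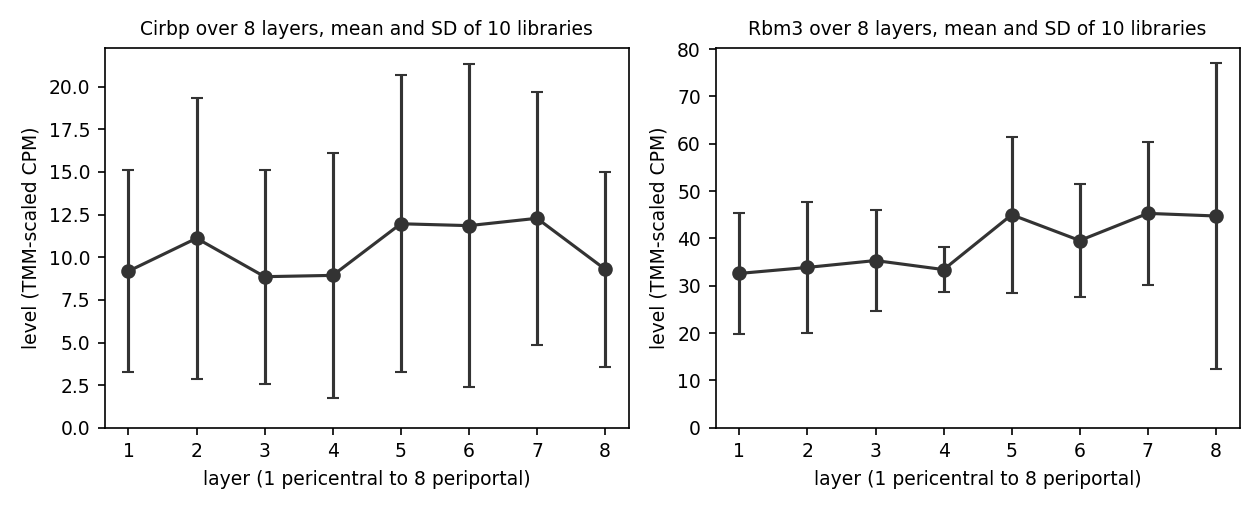
Mean level of Cirbp (left) and Rbm3 (right) in TMM-scaled CPM over 8 equal layers of cells from layer 1 (pericentral) to layer 8 (periportal), with the SD of 10 libraries as bars. Rbm3 means lie between 32.6 and 35.3 CPM in layers 1 to 4 and between 39.6 and 45.3 in layers 5 to 8. The bars overlap, but they also hold the differences between times and do not show the spread of layer differences within a library.

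Few cells held a molecule of either transcript. A Cirbp UMI was found in 414 of the 18378 cells and an Rbm3 UMI in 1425, and 46 cells held both, where the product of the shares in each library summed to 32.49. That sum takes no account of the UMIs per cell, so an excess over it does not show that the transcripts go together. By library 0.775% to 3.68% of cells held Cirbp and 6.1% to 14.2% held Rbm3. After thinning every cell to 1000 UMIs, which left out no cell, the mean share for Cirbp was 1.88% at its highest, in the ZT6 libraries, then 1.25% for ZT12, 0.654% for ZT0 and 0.349% for ZT18. For Rbm3 it was 5.29% for ZT12, 3.81% for ZT6, 3.54% for ZT18 and 2.92% for ZT0. The order of the times was that of the CPM for Cirbp, and for Rbm3 ZT6 and ZT18, whose CPM ranges overlapped, changed places. No cell held more than 2 Cirbp UMIs or more than 4 Rbm3 UMIs. Only hepatocytes were sampled, so no cell type lacking the genes was at hand to measure the share that free RNA gives.

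The relatives of CIRBP and RBM3 with RNA recognition motifs, among them hnRNPs, RBMX and TRA2 proteins, did not pass the wave test with TMM scaling. Of 23 listed, 22 were tested and 0 were called by edgeR (5.14% of all genes were), with 5 unadjusted p below 0.05. DESeq2, limma-voom and edgeR with DESeq2 size factors each called 1, and edgeR without ZT12A called 2. In the zone test, which called 24.6% of all genes, 1 of 22 was called, Hnrnpa0, which was higher in the periportal zone by 0.32 (SE 0.0935, edgeR adjusted p = 0.00973). With libraries scaled by their total alone 1 of 22 was called and it was pericentral.

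Of the 14 CLK kinase and SR protein genes, none passed the wave test by edgeR (5.14% of all genes did), 2 had an unadjusted p below 0.05, and DESeq2 and limma-voom each called 1. Srsf1, a splicing regulator, was the 1 gene called between ZT6 and ZT18, with 24.1 and 26.7 CPM at ZT6 and 58.1 and 58.8 at ZT18 (log2 1.20, SE 0.287, edgeR adjusted p = 0.0355), a direction opposite to that of Cirbp. The Srsf1 call was lost without any 1 of the 4 libraries of ZT6 and ZT18 (edgeR adjusted p up to 0.255). None of the 14 was called in the zone test, which called 24.6% of all genes, and 1 had an unadjusted p below 0.05. The kinase Clk1 measured 30.03 ± 0.493 CPM at ZT6 and 20.1 ± 3.32 at ZT18 (n = 2 each), which did not pass (edgeR adjusted p = 0.366).

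Genes of the heat shock response, which HSF1 switches on when proteins unfold, peaked near the time of the Cirbp trough, among those that passed. Of 22 listed genes 21 were tested, and 6 passed the wave test (5.14% of all genes did; DESeq2 called 10 of the 21) with peaks between ZT 18.45 and ZT 21.28, led by Hsp90aa1, Hspa4l, Hsph1 and Hspb1. Between ZT6 and ZT18, 6 of 21 were called, all higher at ZT18 (2.35% of all genes were), and all 21 had a positive difference, with a median of 1.13 beside -0.01 over all genes. Hsp90aa1, the inducible cytosolic HSP90, measured 79.2 and 85.1 CPM at ZT6 and 425 and 523 at ZT18 (log2 2.53, SE 0.253, edgeR adjusted p = 0.000141). Hsph1, a co-chaperone of the HSP110 family, measured 11.5 and 16.1 CPM at ZT6 and 93.0 and 101.2 at ZT18 (log2 2.79, SE 0.327, edgeR adjusted p = 0.000329). Hspa4l, of the same family, rose by 1.94 (SE 0.211) and Cacybp, a calcyclin-binding protein, by 1.25 (SE 0.263). Of these 4, Cacybp was no longer called without any 1 of the ZT6 and ZT18 libraries (edgeR adjusted p up to 0.197), and the others were called in each case. The number called between ZT6 and ZT18 ran from 3 (without ZT6A, ZT6B or ZT18B) to 10 leaving out each library, and DESeq2 called 10. Scaled by library totals alone, 20 of 21 were higher at ZT18 and 5 were called. Without both ZT18 libraries 4 of 21 passed the wave test. The early response sum and Sox9 also differed between these times, as did the haemoglobin genes in ZT18B, as given for Cirbp. Their part in the chaperone levels was not tested.

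**Figure D4:**
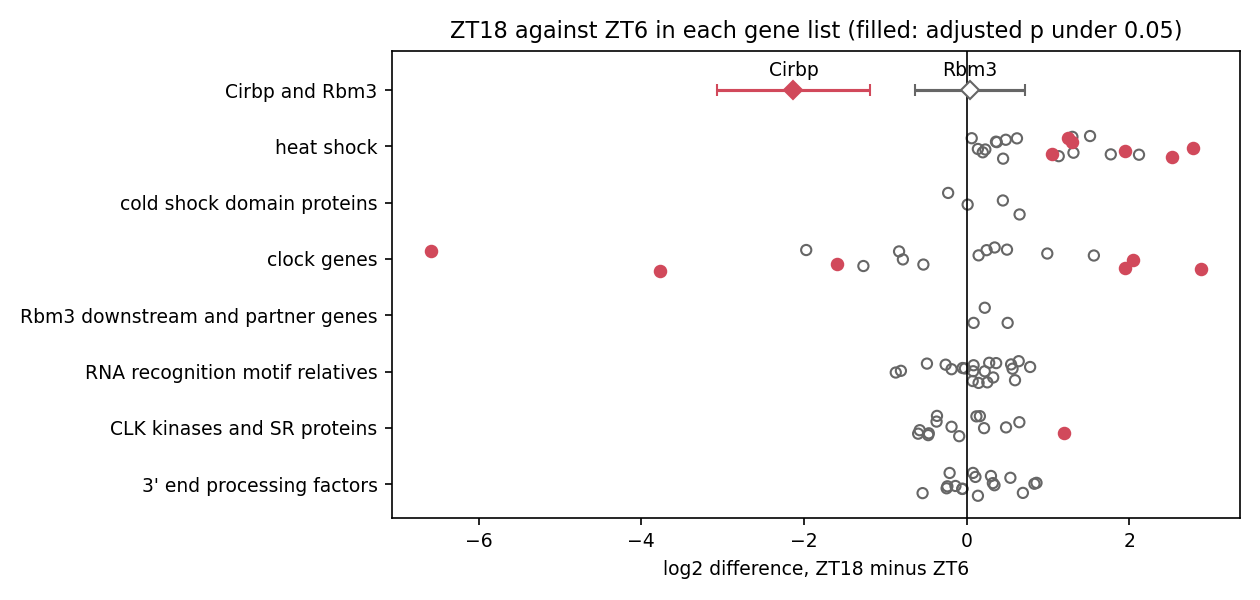
Difference between ZT18 and ZT6 on the log2 scale (edgeR) for the tested genes of the 7 lists that are reported here, 1 point per gene, filled where the adjusted p was under 0.05, with Cirbp and Rbm3 as diamonds with 95% intervals in the top line. Cirbp lies at -2.13 and Rbm3 at 0.04, and all 21 heat shock genes lie above 0.

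In the zone test 6 of the 21 heat shock genes were called and all 6 were pericentral (12.7% of all genes were), the side opposite to Rbm3. Hspa1b by -1.56 (SE 0.157, edgeR adjusted p = 7.05e-10), Dnaja1 by -0.51 (SE 0.0643), Hsp90aa1 by -0.44 (SE 0.0714) and Hspb1 by -0.73 (SE 0.145) were the 4 with the smallest p. Between ZT0 and ZT12, where neither Cirbp nor Rbm3 passed, 3 of 21 were called and were lower at ZT12 (1.7% of all genes were), namely Hsp90aa1 (log2 -1.25), Hspa4l (-0.95) and Hspb1 (-2.09). The Hspb1 call was lost without ZT12B (edgeR adjusted p = 0.0634). Copies of Hspa1b and Hspa1a are nearly identical, so reads may have been split between them.

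The cold shock domain proteins, which bind RNA through a fold unrelated to the RNA recognition motif, did not pass the wave test either. Of 8 listed, 4 were tested, and 0 were called by edgeR or by DESeq2 (edgeR called 5.14% of all genes), with 1 unadjusted p below 0.05. In the zone test 1 of the 4 was called, against 24.6% of all genes. Ybx3, a Y-box protein, was higher in the periportal zone by 0.33 (SE 0.103, edgeR adjusted p = 0.0152), a difference of the same size as that of Rbm3. It was not called with library totals alone, by DESeq2 or without ZT6A (edgeR adjusted p = 0.0639).

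The 17 factors of 3' end processing, the step whose site choice CIRBP and RBM3 influence, held no gene called by edgeR or DESeq2 in the wave test, where edgeR called 5.14% of all genes, with 2 unadjusted p below 0.05. Between zones 3 of 17 were called, a smaller share than the 24.6% of all genes. Pabpn1, the nuclear poly(A) binding protein (0.45, SE 0.122), and Cpsf6, a subunit of cleavage factor I (0.30, SE 0.105), were periportal, and Cstf2t, a cleavage stimulation factor (-0.39, SE 0.136), was pericentral, with edgeR adjusted p of 0.00551, 0.034 and 0.0311. DESeq2 called 1 of the 17. The Cpsf6 call was lost without ZT0A, ZT6A or any library of ZT12 or ZT18 (edgeR adjusted p up to 0.12), and the Cstf2t call without ZT0B, ZT0C, ZT6B or ZT12C (up to 0.14), while Pabpn1 was called in each case. Of 5 genes listed as targets or partners of RBM3, 3 were tested and 0 were called in the wave or zone test by edgeR or DESeq2, with 0 unadjusted p below 0.05, beside 5.14% and 24.6% of all genes by edgeR. Rtn3, whose translation RBM3 is known to promote, measured 87.6 ± 4.58 CPM at ZT0 and 96.2 ± 2.67 at ZT18.

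Most clock genes passed the wave test in the same libraries, 14 of 17 tested (of 19 listed) against 5.14% of all genes, with a median amplitude of 1.10 beside 0.25 over all genes. Nr1d1, the REV-ERBα repressor, peaked at ZT 7.03 (edgeR adjusted p = 5.45e-05), close to the ZT 7.21 of Cirbp. It measured 25.3 and 37.7 CPM at ZT6 and 0.284 and 0.323 at ZT18. Both ZT18 values lay below the level that 3 UMIs give, 0.969 CPM in ZT18A and 0.853 in ZT18B. Dbp, an output factor that binds the D-box, peaked at ZT 9.46, and Clock, which RNA binding by CIRBP is known to affect, at ZT 22.4 with 47.3 ± 1.05 CPM at ZT0 and 22.1 ± 7.77 at ZT12 (n = 3 each). Per3 and Tef peaked at ZT 11.1 and ZT 10.9. Clock no longer passed when ZT12B was left out (edgeR adjusted p = 0.0692). With 4 times, differences between such peaks are not resolved.

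The genes most alike to each member were sought by Pearson correlation of log2(CPM + 1) over the 10 libraries, among the 6310 genes whose mean reached 10 CPM. For Cirbp they were 1600014C10Rik (r = 0.968), Cd82 (0.961), March2 (0.954), Smim19 (0.948) and Rras (0.944). For Rbm3 they were Chd1 (0.930), Pcmtd1 (0.927), Eif5 (0.922), Chd9 (0.919) and Matr3 (0.917). The lists share no gene. The correlation of Cirbp with Rbm3 was 0.226, which placed Rbm3 at rank 2197 for Cirbp. These are descriptions over libraries that also share depth and time of sampling, picked as the highest of many.

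Rbm3, unlike Cirbp, has near copies among the annotated transcripts. They are alike in at least 95% of 200 or more aligned bases. The processed pseudogenes were Rbm3-ps (99.4% over 465 bases), Gm10156 (98.5% over 465), Gm13624 (96.1% over 465) and Gm48583 (98.7% over 223). None of these pseudogenes had an entry among the genes counted. A processed transcript of Phospho2 matched on the opposite strand (97.4% over 380 bases), and Phospho2 held 742 UMIs in all libraries. How reads that fit several copies were counted is not given in the sources used here, and their effect on the Rbm3 count was not tested. The antisense gene Rbm3os overlaps Rbm3 and held 8 UMIs in all libraries, and whether the counting used strand is not given in the sources used here. No such copy was found for Cirbp.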

How the data were processed

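Per the labels' protocols, polyadenylated RNA of single hepatocytes went into 10x Chromium 3' libraries of kit version 2. The authors deposited 1 table per library of UMI counts per gene and cell, as raw whole numbers; the submitters' processing notes name Cell Ranger and the builds hg19 and mm10, with no roles given, and a version, annotation and cell filter are not given in the sources used here. Every cell in the tables had 1048 to 10001 UMIs; doublets were not called.

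Counts were summed per library, or per library and zone, and tested with edgeR 4.0.16 (quasi-likelihood F-tests, TMM, genes of mean CPM of at least 3, Benjamini-Hochberg over all genes tested, threshold 0.05) in R 4.3.3. The wave test fitted a cosine and a sine of 24 h. Zones are 3 equal parts of each library's cells ordered by 16 landmark genes, and landmarks were left out of zone counts over all genes. Transcripts were compared with BLAST 2.17.0. The fits were also run on simulated counts, with the same dispersion for every gene and no effect shared by the zones of a library. The data differ in both respects, so that run does not show how the fits behave at the spread seen here. The members, gene lists, landmarks and tests were chosen with earlier results of these data known. Of each list, at most 4 genes called in a fit are named, in order of adjusted p, except 1 item that is not reported here, besides examples chosen after their values were seen (Clk1, Rtn3 and Clock).

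Letters A to C are shared by the times. Deviations from the time means correlated between libraries of the same letter at ZT0 and ZT12 (r = 0.241 to 0.486, 3 pairs, which also share index columns) and not throughout (-0.043 to 0.486, 13 pairs), so the letters may pair ZT0 with ZT12 only, from the data and not the labels. Alternatives were other scalings and tools (DESeq2 1.42.0, limma 3.58.1), filters, cells, libraries left out and blocks.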

Additional observations from a re-analysis of the deposited data

How the results depend on the processing

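The Cirbp wave (amplitude 1.11) kept its call under other scalings, filters and tools and without mitochondrial, haemoglobin and Mup genes, and was lost without both ZT18 libraries (1.07) and with the index column as a block (0.86). Leaving out each library in turn gave 1.04 to 1.24, with the call lost without ZT6B, ZT18A or ZT18B. The largest difference between any times for Cirbp, 2.13, was 1.35 without both ZT18 libraries and 2.05 to 2.22 leaving out each library, with the call lost without ZT6A, ZT6B, ZT12A, ZT18A or ZT18B. The letter as a replicate block gave an amplitude of 1.14 for the Cirbp wave and 0.37 for Rbm3 with both verdicts kept, raised the number of genes called in the wave test from 458 to 749, and brought Cirbp at ZT6 against ZT0 past the threshold (1.45, edgeR adjusted p = 0.0476). The same difference also passed with DESeq2 (1.36), with no filter on low counts (1.33) and without ZT0B (1.85). Cirbp at ZT18 against ZT12 passed with DESeq2 (-1.48), with no filter (-1.47), without ZT0A (-1.45) and without ZT0B (-1.46). For ZT12 against ZT0, where the letters may pair the libraries, the block gave edgeR adjusted p of 0.277 for Cirbp and 0.0649 for Rbm3.

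The Rbm3 zone difference (0.33) was no longer past the threshold with library totals alone (0.23) or in cells of at least 2000 UMIs (0.31). The spread of the Cirbp to Rbm3 ratio over the times was 1.80 to 2.10 on the log2 scale leaving out each library, passed only without ZT0A (1.95) and was 1.11 without both ZT18 libraries. Differences near 0 changed sign: Rbm3 at ZT18 against ZT6 (0.04) was -0.031 with library totals alone, -0.091 without the 5% of cells with the most UMIs and -0.11 to 0.18 leaving out each library. The mean of ZT0 and ZT12 minus that of ZT6 and ZT18, which a 24-h wave cannot give, was 0.06 for Cirbp, -0.035 with limma-voom, -0.034 with the replicate block and -0.19 to 0.19 leaving out each library, and for Rbm3 0.10 and -0.086 to 0.19. The cause of these changes was not tested. Across all genes the wave test called 458, against 710 with no filter, 792 with DESeq2 and 228 to 465 leaving out each library. Library totals alone moved the median difference of all genes to -0.11 in the zone test and to 0.13 at ZT12 against ZT0, and the share of calls that were higher from 48.33% to 27.94% and from 50.65% to 66.67%. At 13 to 91 Cirbp UMIs per library, differences within a zone or layer are limited by counting.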
